A study of Mus musculus with 9 samples.

Results

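The genes described are 4 oncofetal and liver tumor markers, Afp, Gpc3, Golm1 and Ly6d, together with Zhx2 and Zbtb20, which repress Afp in the liver after birth. They were named by symbol, and every probe set that carried only that symbol was taken, which gave 18 of the 34958 probe sets with 1 symbol and 6 of 18194 genes. Zbtb20 had 9 of these probe sets, Afp had 5, and Gpc3, Golm1, Ly6d and Zhx2 had 1 each. The genes were picked with their levels on these arrays known, so their values are given as a description and without p-values.

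Gene expression was measured on 9 Affymetrix arrays, 1 per piece of tissue, in 3 groups of 3 pieces. The tumor pieces came from a hepatocellular carcinoma with severe steatosis in a mouse of genotype SART1+/-, which carries 1 altered copy of the spliceosome gene Sart1. The adjacent pieces came from liver of that same mouse next to the tumor, which the study design calls uninvolved and the sample labels call cellular alteration with severe steatosis. The last 3 pieces came from 1 wildtype mouse whose liver was labelled normal with mild steatosis. Both mice were C57Bl6 males of 12 months, untreated and fed regular chow, and tumors in such males arose spontaneously. Each group is therefore 1 animal, the spread between arrays is the spread between pieces of 1 organ, and genotype and animal cannot be told apart.

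Alpha-fetoprotein, the product of Afp, is the main plasma protein of the fetal liver. It belongs to the albumin family and its gene lies next to Alb. In mice the gene is shut down within weeks of birth by repressors that include Zhx2, a zinc finger and homeobox protein found through the BALB/cJ strain, whose adult liver keeps some Afp, and Zbtb20, a BTB zinc finger protein. The Gpc3 product, glypican 3, is a heparan sulfate proteoglycan held to the cell surface by a lipid anchor, which is made in fetal liver and again in many human hepatocellular carcinomas. Gpc3 has also been placed under Zhx2 in mice. Golm1 encodes a Golgi membrane protein, GP73, used in human patients as a serum marker of liver disease and carcinoma. Ly6d encodes a small lipid-anchored surface protein known from early B lineage cells and from stratified epithelium.

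The 250 bases upstream of the annotated start of 4 genes are shown because Afp, Gpc3 and Golm1 were called higher in tumor than in wild-type liver while Alb, the neighbour of Afp, was not called, and their start regions differ in make-up. The sequences are those of RefSeq on GRCm38.p6, 5′ to 3′ on the strand of the gene. Capitals mark 3 short motifs searched on both strands, TATAAA (the TATA box), GTTAAT (part of the site of the liver factor HNF1) and GGGCGG (the GC box). A motif on the opposite strand shows as its reverse complement.
Afp: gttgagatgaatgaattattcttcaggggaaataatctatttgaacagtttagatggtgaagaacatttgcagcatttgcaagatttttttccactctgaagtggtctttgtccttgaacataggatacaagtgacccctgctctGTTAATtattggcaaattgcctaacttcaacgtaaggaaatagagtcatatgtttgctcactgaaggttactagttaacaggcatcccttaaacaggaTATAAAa
Alb: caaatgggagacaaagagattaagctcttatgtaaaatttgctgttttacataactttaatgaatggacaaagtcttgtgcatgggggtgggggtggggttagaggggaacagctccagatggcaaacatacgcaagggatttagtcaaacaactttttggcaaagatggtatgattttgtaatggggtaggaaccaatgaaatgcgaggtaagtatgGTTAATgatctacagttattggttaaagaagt
Gpc3: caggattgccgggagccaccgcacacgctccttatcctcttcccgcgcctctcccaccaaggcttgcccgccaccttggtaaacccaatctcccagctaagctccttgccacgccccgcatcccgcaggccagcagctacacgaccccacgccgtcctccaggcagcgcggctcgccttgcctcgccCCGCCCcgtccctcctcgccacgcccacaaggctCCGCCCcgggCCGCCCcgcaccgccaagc
Golm1: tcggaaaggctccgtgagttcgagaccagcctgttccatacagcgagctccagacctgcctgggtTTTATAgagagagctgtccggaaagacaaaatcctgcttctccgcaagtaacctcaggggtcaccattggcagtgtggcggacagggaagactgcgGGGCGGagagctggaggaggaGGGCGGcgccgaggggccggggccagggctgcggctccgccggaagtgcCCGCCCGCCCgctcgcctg

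The Afp window is chr5:90490464-90490713 on the plus strand, and its G and C content is 36.0%. Counting back from the annotated start, with -1 the base before it, TATAAA begins at -7 and GTTAAT at -105. The Alb window, chr5:90460620-90460869 on the plus strand, has 39.2% G and C and holds GTTAAT at -32. Both albumin family windows are therefore poor in G and C, and each holds the HNF1 letters. The Gpc3 window, chrX:52613975-52614224 on the minus strand, has 71.6% G and C and holds the GC box on the opposite strand at -63, -29 and -19. The Golm1 window, chr13:59675785-59676034 on the minus strand, has 65.6% G and C. It holds the GC box at -89 and -68 and, on the opposite strand, at -19 and -15, where the 2 matches overlap, and the TATA letters on the opposite strand at -185. Over 32851 mouse promoters of the same length, 12.4% hold TATAAA, 6.4% hold GTTAAT and 32.7% hold GGGCGG. These matches describe letters and do not show that a factor binds.

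Values are log2 expression, so a difference of 1 is 2-fold. A probe set was called when limma's Benjamini-Hochberg adjusted p over all probe sets was under 0.05 and the difference was at least 1 in size. Of the 18 probe sets, 6 were called higher in tumor than in wild-type liver, 5 higher in adjacent than in wild-type liver and 5 higher in tumor than in adjacent liver. Over all probe sets the shares called higher were 5.45%, 5.25% and 1.6% for the same comparisons, and since the genes were chosen on these arrays nothing is read from that contrast. No probe set of the 6 genes was called lower in any comparison, where the shares over all probe sets were 2.99%, 2.27% and 1.76%. Counted by the brightest probe set of each gene, 4, 3 and 3 of the 6 genes were called higher, against 6.47%, 6.4% and 1.64% of all genes. Groups that did not overlap were more common than calls. Of the 18 probe sets, 7 lay higher and 2 lower without overlap in tumor against wild-type liver, where 26.3% and 29.7% of all probe sets did. In adjacent against wild-type liver 5 lay higher and 2 lower (25.5% and 31.2% of all probe sets), and in tumor against adjacent liver 9 lay higher and 1 lower (20.7% and 20.3%). The 3 comparisons share arrays and are not independent of each other. In pieces of whole tissue, fewer cells of a type and less RNA per cell cannot be told apart.

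Sart1 itself, on its brighter probe set 1448658_at, measured 7.77, 7.71 and 7.75 in the tumor pieces, 8.34, 8.39 and 8.38 in the adjacent pieces and 8.35, 8.32 and 8.36 in wild-type liver. The level in the adjacent pieces lay within 0.03 of wild type (adjusted p = 0.733, limma), although both sets of pieces from the SART1+/- mouse carry the same genotype label, and the position of the probe set in relation to the targeted part of the gene was not stated. Its other probe set, 1442284_at, averaged 5.38 in tumor, 5.57 in adjacent liver and 5.71 in wild-type liver, at -0.33 and -0.14 from wild type (adjusted p = 0.0125 and 0.237, limma). The 40th percentile of an array, used below as a mark of dim signal, was 5.16 to 5.26. The difference between the 3′ and 5′ probe sets of Actb, a measure of RNA integrity, was 0.539 to 0.694 in tumor, 0.819 to 0.907 in adjacent liver and 0.834 to 0.884 in wild-type liver. Its part in the results was not tested.

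Afp differed between all 3 tissues. It was very high in the tumor, intermediate in the adjacent liver and near the dim end of the scale in wild-type liver. Probe set 1416646_at, the one with the highest mean, read 11.95, 11.75 and 12.08 in the tumor pieces, 9.10, 8.87 and 9.31 in the adjacent pieces and 5.98, 5.93 and 5.23 in wild-type liver. The 3 groups did not overlap, and each group stood several times its own spread away from the next. The log2 difference was 6.21 (SE 0.18) for tumor minus wild type, 3.38 (SE 0.18) for adjacent minus wild type and 2.83 (SE 0.18) for tumor minus adjacent. The last of these is 7.13-fold. No fold is given against wild-type liver, where piece 3 lay at the dim mark. On the arrays this placed Afp above 98.2% of probe sets in every tumor piece, against at most 88.5% in adjacent pieces and at most 53.1% in wild-type pieces.

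A second Afp probe set, 1416645_a_at, gave a larger step from wild-type liver. It read 12.39, 12.16 and 12.54 in tumor, 10.01, 9.57 and 10.10 in adjacent liver and 3.48, 3.37 and 3.87 in wild-type liver. The order of the groups was the same, but all 3 wild-type values lay below the 40th percentile of their arrays. The log2 differences were 8.79 (SE 0.16) for tumor minus wild type and 6.32 (SE 0.16) for adjacent minus wild type. The first of these ranked 1 of all 34958 probe sets, but its size depends on the background that the wild-type values reflect, and no fold is given for it. Tumor minus adjacent, where both sides were bright, was 2.47 (SE 0.16), or 5.54-fold.

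The third responding probe set, 1436879_x_at, showed the same order at lower levels. It read 10.50, 10.27 and 10.68 in tumor, 8.17, 7.94 and 8.20 in adjacent liver and 3.97, 4.25 and 3.71 in wild-type liver, where all values were again dim. The groups did not overlap, with differences of 6.51 (SE 0.14) from wild type in tumor, 4.13 (SE 0.14) from wild type in adjacent liver and 2.38 (SE 0.14) between tumor and adjacent liver. Among the 3 probe sets, the tumor minus wild-type difference spanned 2.57 and the adjacent minus wild-type difference spanned 2.94. The tumor minus adjacent difference spanned only 0.45. On these 3 probe sets, taken because they were called in tumor against wild-type liver, tumor minus adjacent thus varied least, at 2.38 to 2.83. The distance of either tissue from wild-type liver varied more with the probe set. The remaining Afp probe sets, near the dim end, gave 0.64 and -0.10 for tumor minus adjacent. In each of the 3 probe sets tumor piece 2 was the lowest and tumor piece 3 the highest of the tumor pieces, and adjacent piece 2 was the lowest of the adjacent ones.

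The other 2 Afp probe sets stayed close to the dim end on every array. Probe set 1436881_x_at read 6.17, 5.52 and 5.80 in tumor, 5.31, 4.97 and 5.31 in adjacent liver and 5.17, 5.22 and 5.08 in wild-type liver. The tumor pieces lay above both other groups, by 0.64 and 0.67 (SE 0.15), and the adjacent pieces overlapped wild-type liver. Probe set 1436880_at read 5.24, 5.39 and 5.31 in tumor, 5.44, 5.40 and 5.42 in adjacent liver and 5.40, 5.48 and 5.40 in wild-type liver. Its tumor minus wild-type difference was -0.11 (SE 0.06), so it carried none of the difference that the other probe sets of the gene showed. Neither probe set was called in any comparison. The parts of the transcript that these probe sets match were not examined.

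**Figure D1:**
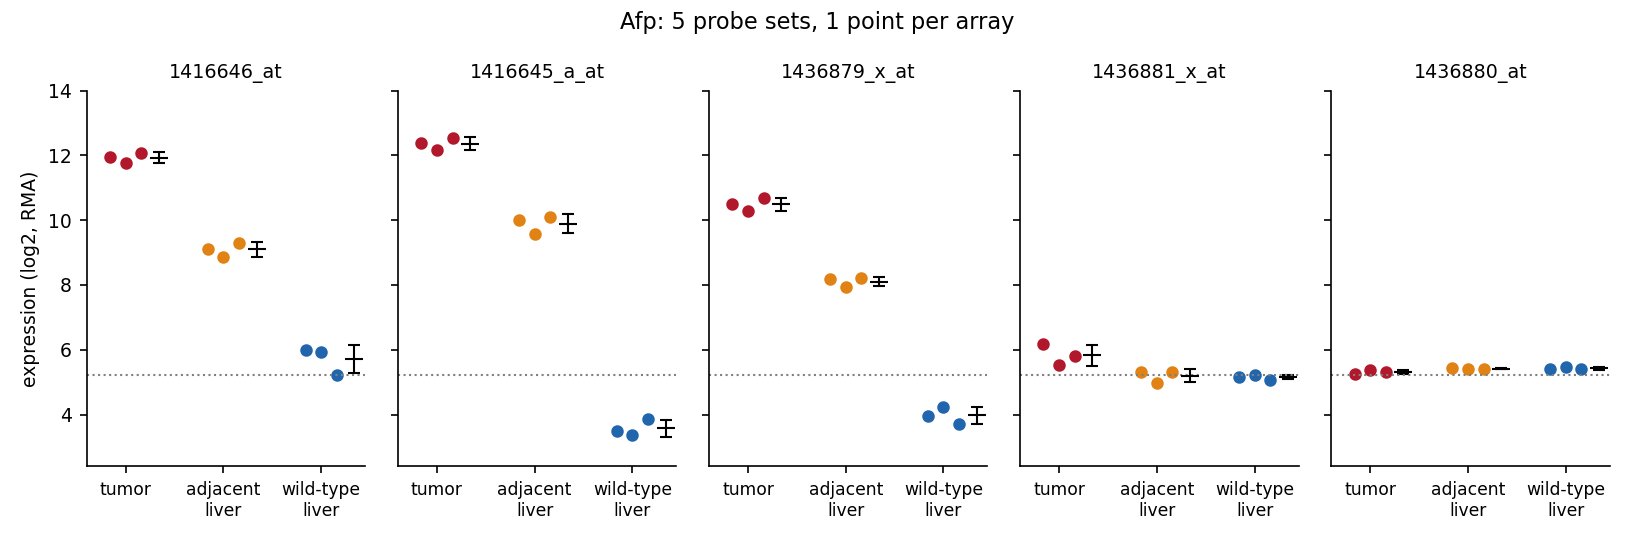
Expression of the 5 Afp probe sets (y axis, log2, RMA) in tumor, adjacent liver and wild-type liver (x axis); coloured points are the 3 arrays of a group, black marks the mean ± SD, and the dotted line is the mean 40th percentile of the arrays. In 3 probe sets the groups step down without overlap, with tumor at 10.27 to 12.54, and in the other 2 all arrays lie between 4.97 and 6.17.

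Albumin family neighbours of Afp did not share the pattern. Alb, the major adult plasma protein, averaged 14.45 ± 0.04 in tumor, 14.49 ± 0.03 in adjacent liver and 14.45 ± 0.01 in wild-type liver (SD, n = 3), and the tumor minus wild-type difference was 0.002 (adjusted p = 0.984, limma). Alb lay at the very top of the scale, where array maxima were 14.43 to 14.51, so a higher level may not have been measurable. Afm, which encodes the vitamin E carrier afamin, read 12.83, 12.82 and 13.03 in tumor, 11.90, 11.72 and 11.94 in adjacent liver and 12.57, 12.57 and 12.65 in wild-type liver. Afm was called higher in tumor than in adjacent liver, at 1.04 (SE 0.08, adjusted p = 2.26e-06), and the difference was 0.97 without tumor piece 3 and 0.98 without adjacent piece 2, under the minimum of 1. A second Afm probe set was called too, at 1.20 (adjusted p = 1.69e-06). Unlike Afp, Afm in adjacent liver lay below wild-type liver, at -0.74 (adjusted p = 1.54e-05), which is under the 2-fold minimum.

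Zhx2, the repressor first linked to persistent Afp in mice, was at the same level in all 3 tissues within the spread of the pieces. It read 7.98, 7.86 and 7.97 in tumor, 7.91, 8.02 and 8.17 in adjacent liver and 8.02, 7.98 and 7.98 in wild-type liver. The groups overlapped, and no piece stood apart. Tumor minus wild type was -0.06, with a 95% interval from -0.22 to 0.11. Adjacent minus wild type was 0.04 (-0.13 to 0.20) and tumor minus adjacent was -0.09 (-0.26 to 0.07). A change of Zhx2 mRNA of 0.26 or more in size on the log2 scale lay outside these intervals, which cover the spread between pieces and not that between animals. The arrays measure mRNA and say nothing of the Zhx2 protein. The related genes Zhx1 and Zhx3 were not called in any comparison either. Zhx3 was at -0.65 in tumor and -0.54 in adjacent liver against wild-type liver (adjusted p = 7.61e-06 and 3.79e-05), under the 2-fold minimum.

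Zbtb20 was well expressed in every piece and had no called difference on any of its 9 probe sets. The brightest, 1422064_a_at, read 9.58, 9.73 and 9.56 in tumor, 9.57, 9.49 and 9.59 in adjacent liver and 9.42, 9.73 and 9.92 in wild-type liver. The groups overlapped, with the wild-type pieces spread around both others. All 9 probe sets had means below wild type in tumor, by -0.43 to -0.04 with a median of -0.16, and in adjacent liver, by -0.62 to -0.12 with a median of -0.25. Some of these directions depended on single pieces, more so in tumor than in adjacent liver. Without wild-type piece 3, 4 of the 9 tumor differences turned above 0 (range -0.29 to 0.08, median -0.02) and 1 of the 9 adjacent differences did (median -0.07). Without wild-type piece 1 the medians were -0.36 in tumor and -0.48 in adjacent liver, and without tumor piece 1, 1 tumor difference turned above 0. They probe 1 gene in the same pieces and are not independent measurements. The groups did not overlap for 1 of 9 probe sets in tumor against wild-type liver (1439128_at) and for 2 of 9 in adjacent against wild-type liver (1439128_at and 1437066_at), all lower, where 29.7% and 31.2% of all probe sets did not overlap in that direction.

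The largest Zbtb20 difference was that of 1437066_at in adjacent liver. This probe set read 8.19, 8.41 and 8.32 in tumor, 8.02, 8.00 and 7.91 in adjacent liver and 8.32, 8.71 and 8.77 in wild-type liver. The adjacent pieces were below all others, at -0.62 (SE 0.11) from wild type, and the tumor lay between, 0.33 above adjacent liver. Tumor minus adjacent over the 9 probe sets was -0.09 to 0.33, with 6 above and 3 below 0.

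Much of the Zbtb20 spread lay within wild-type liver. In 9 of 9 probe sets wild-type piece 1 was the lowest and wild-type piece 3 the highest of the wild-type pieces. The range of the 3 pieces had a median of 0.19 over the probe sets in tumor, 0.12 in adjacent liver and 0.62 in wild-type liver, against 0.173, 0.16 and 0.161 over all probe sets in the same groups. The median of the 9 probe sets was 8.19, 8.41 and 8.32 in the tumor pieces, 8.38, 8.13 and 8.18 in the adjacent pieces and 8.32, 8.66 and 8.88 in wild-type liver. Wild-type piece 1 was thus as low as the tumor, and the distance from wild-type liver rested on the other 2 pieces. On 1416646_at, Afp ordered the wild-type pieces the other way, at 5.98, 5.93 and 5.23, a range of 0.75 that 0.49% of all probe sets exceeded in wild-type liver. The lowest of these values lay near the 40th percentile of its array. The other responding Afp probe sets did not keep that order in wild-type liver. Probe set 1416645_a_at read 3.48, 3.37 and 3.87, with piece 3 highest as for Zbtb20. Probe set 1436879_x_at read 3.97, 4.25 and 3.71, and all values of both were dim.

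**Figure D2:**
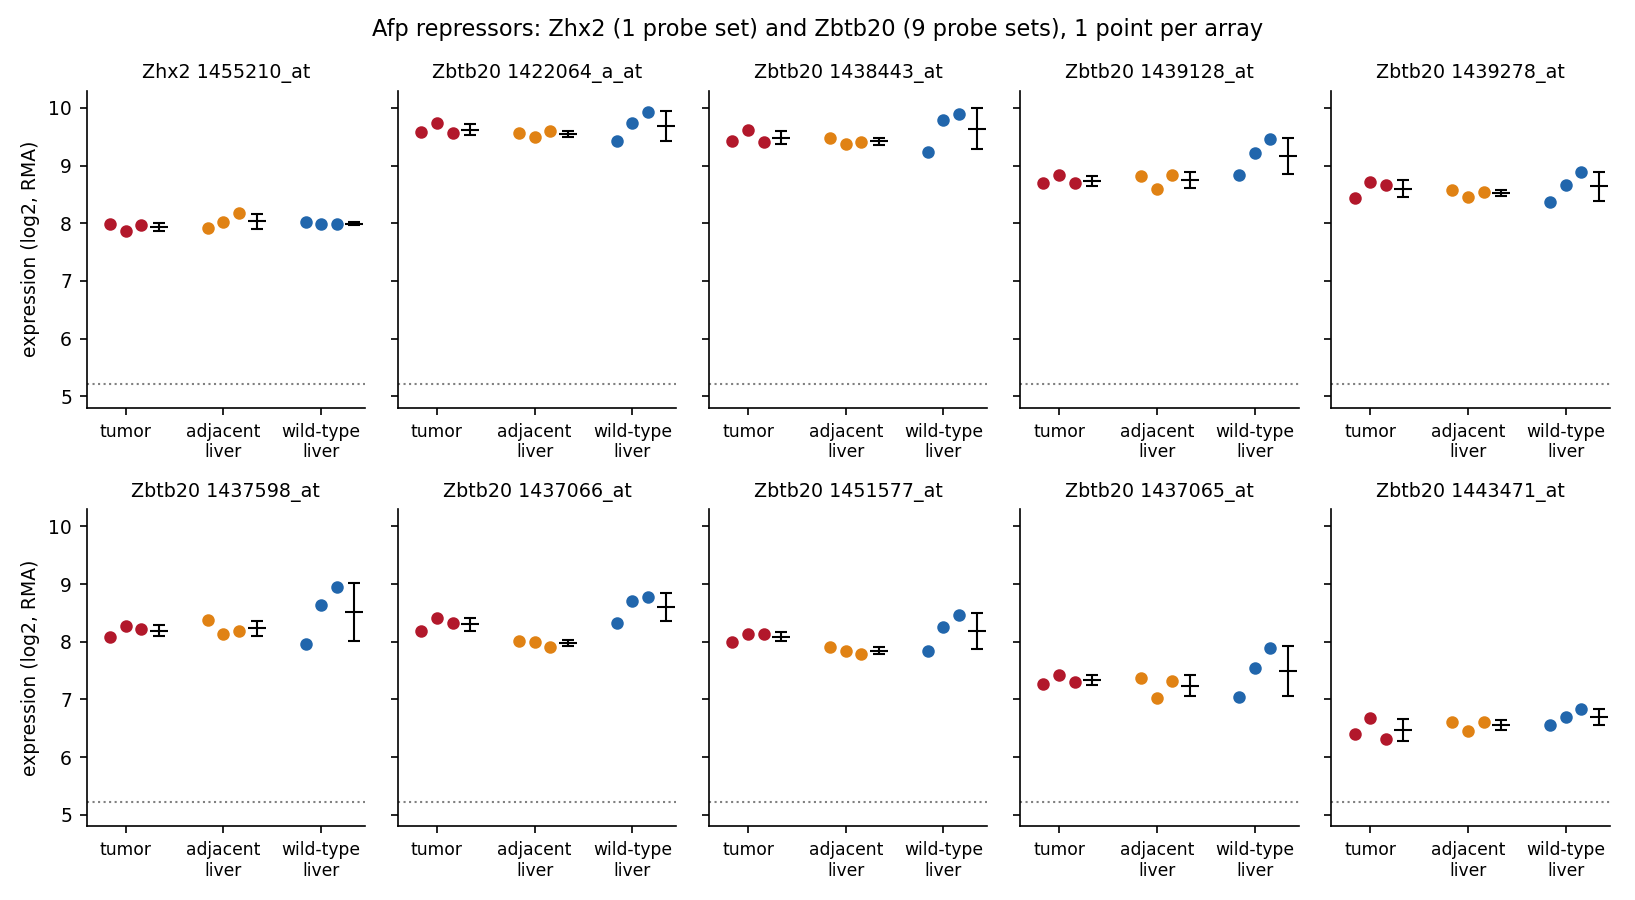
Expression of Zhx2 (1 probe set) and Zbtb20 (9 probe sets) on the y axis (log2, RMA) in tumor, adjacent liver and wild-type liver (x axis); coloured points are the 3 arrays, black marks the mean ± SD, and the dotted line is the mean 40th percentile of the arrays. Zhx2 stays between 7.86 and 8.17 in every piece. The wild-type pieces of Zbtb20 are spread more widely than the others except on 1443471_at, and wild-type piece 3 is highest in each Zbtb20 panel.

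Factors that act positively on Afp in liver were not called in tumor against wild-type liver. Of 9 listed activators 7 had a probe set with 1 symbol, and 0 of these were called in tumor against wild-type liver, with a list median of -0.07 against -0.06 over all genes. By brightest probe set, 10% of all genes were called in that comparison and 8.9% in adjacent against wild-type liver. The hepatocyte regulator Hnf4a, which drives liver-specific transcription, was at -0.20 in tumor and -0.12 in adjacent liver relative to wild-type liver. The pioneer factors Foxa2 and Foxa3 were at -0.33 and 0.59 in tumor, Cebpa was at 0.05 and Nr5a2, a nuclear receptor, at 0.19. None of these 5 was called in adjacent liver either.

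The called activators were Foxa1 and Cebpb, and both were lower in adjacent liver. Foxa1, another pioneer factor, read 8.59, 8.42 and 8.39 in tumor, 7.35, 6.99 and 7.41 in adjacent liver and 8.52, 8.41 and 8.65 in wild-type liver. It fell by 1.28 in adjacent against wild-type liver (SE 0.11, adjusted p = 2.12e-06) and was higher in tumor than in adjacent liver by 1.21 (adjusted p = 7.04e-06). Tumor and wild-type liver overlapped, at -0.07 (adjusted p = 0.645). Cebpb, an acute phase and regeneration factor, fell by 1.07 in adjacent liver (SE 0.07, adjusted p = 2.18e-07), and its second probe set by 1.01. In tumor Cebpb also lay below wild-type liver without overlap, at -0.70 (adjusted p = 5.95e-06, limma). Its second probe set was at -0.53 in tumor, and both were under the 2-fold minimum. Foxa1 was lowest in adjacent liver, where Afp was intermediate. Zfhx3, which represses Afp through its enhancer and promoter, was at -0.03 in tumor and -0.06 in adjacent liver relative to wild-type liver and was not called.

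Lpl, which encodes lipoprotein lipase and has been placed under Zhx2 in mouse liver, was also higher in both tissues of the SART1+/- mouse, but in another order. It read 11.24, 11.24 and 11.52 in tumor, 12.63, 12.64 and 12.51 in adjacent liver and 7.89, 7.99 and 7.76 in wild-type liver. It rose by 3.46 in tumor (SE 0.09, adjusted p = 1.22e-10) and by 4.71 in adjacent liver (SE 0.09, adjusted p = 3.08e-11). In tumor it was 1.26 below adjacent liver (adjusted p = 1.33e-06), and its other probe set moved the same way in all 3 comparisons.

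Gpc3 was high in the tumor alone among these 3 tissues. It read 9.28, 9.33 and 10.51 in tumor, 5.46, 5.49 and 5.42 in adjacent liver and 5.68, 5.68 and 5.47 in wild-type liver. Every tumor piece was far above the other 6, and adjacent and wild-type pieces overlapped at a level not far above the 40th percentile. Group means were 9.71 ± 0.70, 5.46 ± 0.03 and 5.61 ± 0.12 (SD, n = 3). The log2 difference was 4.10 (SE 0.25) for tumor minus wild type and 4.25 (SE 0.25) for tumor minus adjacent. Adjacent minus wild type was -0.15, with a 95% interval from -0.70 to 0.40. The adjacent pieces thus showed no Gpc3 step like the 3.38 or more of the called Afp probe sets. The Afp probe sets that were not called, 1436881_x_at and 1436880_at, gave 0.04 and -0.01 for adjacent minus wild type.

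Gpc3 also varied most between tumor pieces. The gap between the lowest and the highest tumor piece was 1.23, and 0.14% of all probe sets had a larger range in tumor, where the median range was 0.173 and the 95th percentile 0.451. Piece 3 accounted for that gap, and the other 2 pieces were 0.05 apart. Without tumor piece 3 the difference was 3.70 from wild type and 3.84 from adjacent liver, and it remained called. Tumor piece 3 was the highest tumor piece in 3 Afp probe sets too, but by 0.18 or less over the next. Golm1 and Ly6d were not highest in that piece.

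Among the other glypicans the tumor also had more Gpc4. Gpc4 read 11.00, 10.92 and 11.16 in tumor, 9.64, 9.87 and 9.76 in adjacent liver and 10.03, 9.97 and 10.05 in wild-type liver. It rose by 1.27 in tumor against adjacent liver (SE 0.08, adjusted p = 5.02e-07) and by 1.01 against wild-type liver (SE 0.08, adjusted p = 1.01e-06). The second call was lost without tumor piece 3 (0.94), without wild-type piece 2 (0.99) and after cyclic loess (0.94), and a second Gpc4 probe set gave 0.26 against wild-type liver. Gpc2 and Gpc5 were below the 40th percentile on all 9 arrays. Gpc1 was at 0.72 in tumor and 0.43 in adjacent liver relative to wild-type liver and was not called. The brightest Gpc6 probe set was not called, at 0.15 in tumor, whereas 3 of its other probe sets were, at 1.06, 1.77 and 1.44.

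Genes that make, edit or cut glypicans or act through glypican 3 were not called in tumor against wild-type liver by brightest probe set (0 of 14 measured of 15 listed, median 0.20 against -0.06 over all genes). In tumor against adjacent liver 2 were called higher and 3 lower, where 3.93% of all genes were called. Smo, the signal transducer of the hedgehog pathway that glypican 3 restrains in mice, read 8.01, 7.91 and 8.22 in tumor, 6.25, 6.24 and 6.15 in adjacent liver and 7.44, 7.38 and 7.24 in wild-type liver. It rose by 1.83 against adjacent liver (adjusted p = 6.5e-08) and fell by 1.14 in adjacent against wild-type liver (adjusted p = 8.63e-07). A second Smo probe set was called higher in tumor against wild-type liver too, at 1.03 (adjusted p = 1.14e-05), where the first was at 0.69. Sulf2, which removes sulfate groups from heparan sulfate, rose by 1.16 in tumor against adjacent liver (adjusted p = 2.82e-06). Fzd7, a Wnt receptor, fell by 1.41 (adjusted p = 1.33e-06). Ihh, a hedgehog ligand, was at -1.01 (adjusted p = 1.66e-06), a call that was lost without tumor piece 3, adjacent piece 1 or adjacent piece 3.

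Igf2, a fetal growth factor that glypican 3 has been reported to bind in human cells, had the opposite distribution to Gpc3. It read 7.40, 7.05 and 7.40 in tumor, 13.73, 13.62 and 13.69 in adjacent liver and 6.84, 6.82 and 6.38 in wild-type liver. The adjacent pieces were 7.00 above wild-type liver (SE 0.13, adjusted p = 2.35e-11) and the tumor 6.40 below adjacent liver (adjusted p = 2.18e-10). The tissue with high Gpc3 was thus not the one with high Igf2. Notum, an enzyme reported to release glypicans from the cell surface, fell by 1.13 in adjacent against wild-type liver (SE 0.21, adjusted p = 0.000897). Without adjacent piece 2 it fell by 0.97, under the minimum of 1.

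Golm1 was high in tumor and nearly as high in adjacent liver. It read 11.19, 11.24 and 11.19 in tumor, 10.56, 10.39 and 10.60 in adjacent liver and 6.57, 6.77 and 6.70 in wild-type liver. The 3 groups did not overlap, and the tumor pieces lay within 0.05 of each other. The log2 difference was 4.53 (SE 0.08) for tumor minus wild type and 3.84 (SE 0.08) for adjacent minus wild type, or 23.1-fold and 14.3-fold. Tumor minus adjacent was 0.69 (SE 0.08), short of the 2-fold minimum. Wild-type liver was above the 40th percentile on each array, so these folds rest on measured levels on both sides.

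Other Golgi membrane proteins did not share this increase, with 1 exception. Of 12 measured genes of 14 listed, 1 was called higher and 0 lower in each of the 3 comparisons, with list medians of 0.09, 0.02 and 0.21 against -0.06, -0.057 and -0.008 over all genes. The exception was Golm2, the closest relative of Golm1, which read 8.43, 8.23 and 7.97 in tumor, 6.93, 6.94 and 6.94 in adjacent liver and 5.67, 5.74 and 5.73 in wild-type liver. It rose by 2.50 in tumor (SE 0.10, adjusted p = 2.69e-09) and by 1.22 in adjacent liver (adjusted p = 1.22e-06). A second Golm2 probe set was called in tumor, at 1.95 from wild type and 1.96 from adjacent liver, but stood at -0.02 in adjacent liver. The structural golgins and stacking proteins Golga1 to Golga5, Golgb1, Gorasp1 and Gorasp2 were at -0.26 to 0.59 in tumor relative to wild-type liver.

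Ly6d was high in both tissues of the SART1+/- mouse. It read 13.26, 13.42 and 13.22 in tumor, 12.03, 11.63 and 11.99 in adjacent liver and 6.49, 6.87 and 6.71 in wild-type liver. The 3 groups did not overlap. The log2 difference was 6.61 (SE 0.12) for tumor minus wild type, 5.19 (SE 0.12) for adjacent minus wild type and 1.42 (SE 0.12) for tumor minus adjacent, or 97.5-fold, 36.5-fold and 2.67-fold. In tumor the Ly6d probe set was above at least 99.7% of the probe sets of each array, and its tumor minus wild-type difference ranked 5 of 34958. Wild-type liver was above the 40th percentile on each array.

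**Figure D3:**
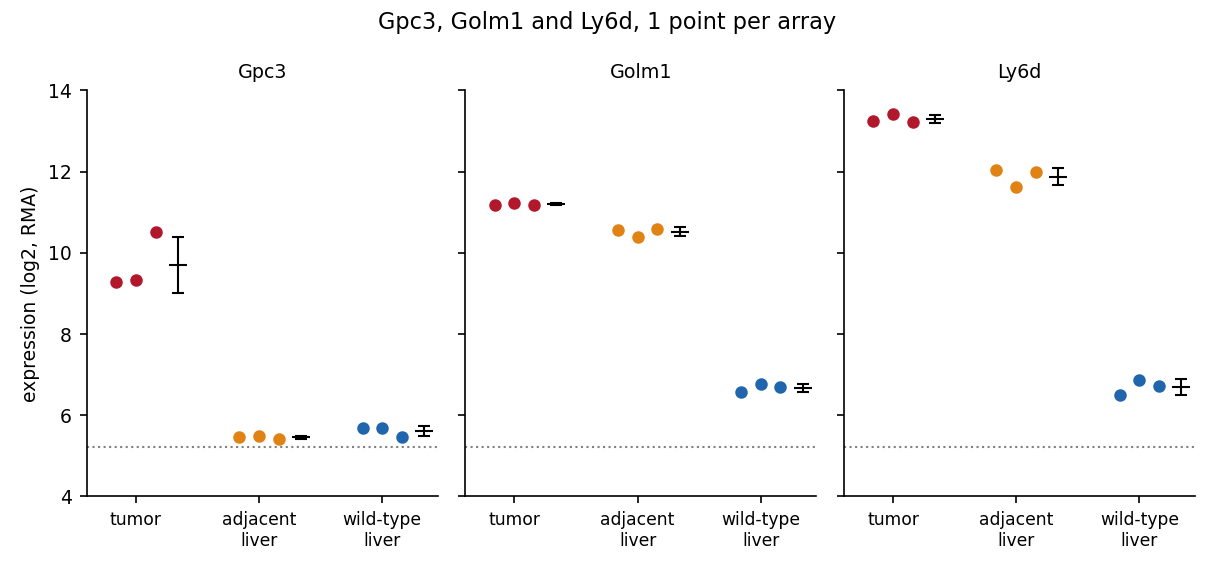
Expression of Gpc3, Golm1 and Ly6d (y axis, log2, RMA) in tumor, adjacent liver and wild-type liver (x axis); coloured points are the 3 arrays, black marks the mean ± SD, and the dotted line is the mean 40th percentile of the arrays. Gpc3 is high only in the tumor pieces, at 9.28 to 10.51, whereas Golm1 and Ly6d are high in both tumor and adjacent liver.

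Within the Ly6 family the change was uneven. Of 11 measured genes of 15 listed, 3 were called higher in tumor and 3 in adjacent liver against wild-type liver, Ly6d included, with medians of 0.14 and -0.05. Ly6e, a broadly expressed interferon-inducible member, rose by 1.38 in tumor (adjusted p = 9.38e-09) and by 1.73 in adjacent liver (adjusted p = 2.24e-09). Lynx1, known as a modulator of nicotinic receptors, rose by 1.19 in tumor (adjusted p = 1.24e-05). Ly6k, known from testis, read 5.53, 5.12 and 5.33 in tumor, 7.91, 7.94 and 7.89 in adjacent liver and 5.42, 5.04 and 5.04 in wild-type liver. It was called higher in adjacent liver at 2.75 (adjusted p = 7.96e-09) and lower in tumor against adjacent liver at -2.59, but its second probe set gave -0.08 in adjacent liver. Ly6f, Ly6h and Ly6i were below the 40th percentile on all 9 arrays.

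Markers of the cell types in which Ly6d is best known moved less than Ly6d. Of 7 measured B lineage markers of 8 listed, Cd79b, a part of the B cell receptor, was called higher in tumor against wild-type liver, at 1.04 (adjusted p = 8.43e-06), a call that was lost without tumor piece 3 (0.97) or wild-type piece 3 (0.96). Their mean level per array was 6.15 to 6.28 in tumor, 5.88 to 6.04 in adjacent liver and 5.74 to 5.93 in wild-type liver, and Ebf1, a defining factor of early B cells, was below the 40th percentile on all 9 arrays. Of 7 measured squamous epithelium markers of 8 listed, the keratin Krt5 rose by 2.74 in tumor against wild-type liver (adjusted p = 1.38e-08) and by 2.52 against adjacent liver (adjusted p = 1.11e-07). Sprr1a, of the cornified envelope, was at 1.08 in tumor (adjusted p = 9.8e-05), a call lost without tumor piece 2 or wild-type piece 2. The squamous mean level was 5.96 to 6.19 in tumor, 5.56 to 5.77 in adjacent liver and 5.63 to 5.87 in wild-type liver, and Krt14, Trp63 and Krt13 were below the 40th percentile on all 9 arrays. In adjacent liver, where Ly6d was 5.19 above wild-type liver, none of the markers of either list was called.

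No hepatocyte marker was called higher in either tissue. Of 8 measured of 10 listed, 0 were called higher, 2 lower in tumor and 1 lower in adjacent liver against wild-type liver. Their mean level was 12.41 to 12.50 in tumor, 12.48 to 12.52 in adjacent liver and 12.74 to 12.80 in wild-type liver. The lower ones were the urea cycle enzymes Cps1, at -1.37 in tumor (adjusted p = 2.18e-07), and Ass1, at -1.07 in tumor and -1.08 in adjacent liver on a probe set below the 40th percentile on all 6 arrays of the SART1+/- mouse. In wild-type liver that Ass1 probe set averaged only 5.74, against 13.54 for Cps1. The Ass1 differences therefore lie near the dim end of the scale. A second probe set of Apob, which encodes apolipoprotein B, was called lower in adjacent liver at -1.76, whereas its brightest was at -0.10. The Ass1 calls were lost after cyclic loess, and the tumor call also without tumor piece 1 or wild-type piece 2.

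Bile duct markers, listed because fetal and progenitor-like liver cells share some of them, gave 1 called gene of 5 measured by brightest probe set. Cldn7, a tight junction protein, rose by 3.81 in tumor (adjusted p = 1.8e-10) and by 5.31 in adjacent liver (adjusted p = 3.41e-11), and was at -1.50 in tumor against adjacent liver. Sox9, a factor of bile duct and progenitor cells, was at 0.73 in tumor and 0.994 in adjacent liver, and the second was called after median centring, after cyclic loess and without adjacent piece 1 or wild-type piece 1 or 3 (1.01 to 1.06). Another Sox9 probe set was called in both, at 1.11 in tumor and 1.46 in adjacent liver against wild-type liver, and a second Epcam probe set was called in tumor against adjacent liver, at 1.03. The bile duct mean level was 7.04 to 7.32 in tumor, 7.39 to 7.54 in adjacent liver and 6.12 to 6.28 in wild-type liver. Erythroid markers, which would follow blood formation as in fetal liver, had 0 of 7 higher, 2 lower in tumor and 1 lower in adjacent liver, with Alas2, the heme synthesis enzyme of red cell precursors, at -2.70 and -2.32.

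Markers of the supporting cells of the liver also differed between the mice. Of 8 stellate cell and fibroblast markers, 3 were called higher and 1 lower both in tumor and in adjacent liver against wild-type liver. The collagen gene Col1a1 rose by 2.66 in tumor (adjusted p = 4.68e-07) and by 3.15 in adjacent liver (adjusted p = 1.47e-07), and Col3a1 rose by 2.47 and 2.72. Pdgfrb, a receptor on stellate cells and pericytes, rose by 1.46 and 1.41, and Lrat, which makes the retinyl esters that stellate cells store, was called lower at -1.11 and -1.02. A second probe set of Pdgfrb was not called in either tissue and a second one of Col1a1 not in tumor, at 0.63, and the Lrat calls were each lost with some single arrays left out. Reln was called higher in tumor than in adjacent liver, at 1.32. The stellate mean level was 9.07 to 9.51 in tumor, 9.07 to 9.32 in adjacent liver and 8.20 to 8.65 in wild-type liver.

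Of 6 Kupffer cell markers, 1 was called higher and 2 lower in tumor, and 0 higher and 3 lower in adjacent liver, against wild-type liver. Cd163, a scavenger receptor of macrophages, stood at -4.87 in tumor and -4.98 in adjacent liver and was below the 40th percentile on all arrays of the SART1+/- mouse. Clec4f, which defines Kupffer cells in mice, was not called in either tissue, at -0.06 and -0.24. Timd4 was called lower in both tissues and Marco in adjacent liver, and Cd5l was called higher in tumor at 1.06. The Cd5l call was lost without tumor piece 3 and after cyclic loess (0.98 each), the Marco call without adjacent piece 2 (-0.97), and the Timd4 call in tumor without tumor piece 2, without wild-type piece 3 and after cyclic loess (-0.97 to -0.99). The Kupffer mean level was 8.17 to 8.35 in tumor, 7.40 to 8.22 in adjacent liver and 9.0 to 9.13 in wild-type liver. Of 7 endothelial markers, Lyve1 was called higher in tumor at 1.90 and in adjacent liver at 1.20, the second lost without adjacent piece 3 (0.99) or wild-type piece 3 (0.90). Clec4g was called lower in adjacent liver, at -1.03, and was at -0.64 without adjacent piece 2. The endothelial mean level was 8.90 to 9.16 in tumor, 8.72 to 9.07 in adjacent liver and 8.72 to 8.94 in wild-type liver. The part of these cell types in the levels of the 4 tumor markers was not tested.

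Other oncofetal genes were divided, as the 4 markers were. Of 18 measured of 21 listed, 6 were called higher and 0 lower in tumor, and 7 higher and 1 lower in adjacent liver, both against wild-type liver, with medians of 0.46 and 0.37. The largest in tumor were Tff3 at 5.88, Scd2 at 5.53, Bex1 at 4.91 and Prom1 at 4.32, and in adjacent liver Igf2 at 7.00, Scd2 at 5.46, Prom1 at 5.08 and Tff3 at 4.88. Bex1, an X-linked gene, was the 1 member of this list called higher in tumor than in adjacent liver by brightest probe set, at 3.02 (SE 0.31, adjusted p = 1.95e-05). Tff3 was just short of the minimum, at 0.998, and was called without tumor piece 1, tumor piece 2 or adjacent piece 3 (1.07 to 1.12). Dlk1 was called without tumor piece 2, at 1.33, and a second probe set of Epcam, an epithelial adhesion gene, was called at 1.03. Bex1 read 8.37, 8.42 and 9.22 in tumor, 6.45, 5.23 and 5.28 in adjacent liver and 3.94, 3.44 and 3.89 in wild-type liver. Tumor piece 3 was its highest tumor piece, as for Gpc3. The tumor count of 6 includes the imprinted gene Dlk1, named here after its values were seen, whose difference of 1.34 (adjusted p = 0.0189) was 0.67 without tumor piece 1. The embryonic regulators Lin28b and Sall4 were below the 40th percentile on all 9 arrays. Igf2bp3 was not called by its brightest probe set. Of its 6 probe sets, 2 others were called higher in tumor against wild-type liver, at 1.705 and 1.229. In adjacent liver 3 others were, at 1.963, 1.716 and 1.38, the last at a dim mean of 4.741.

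**Figure D4:**
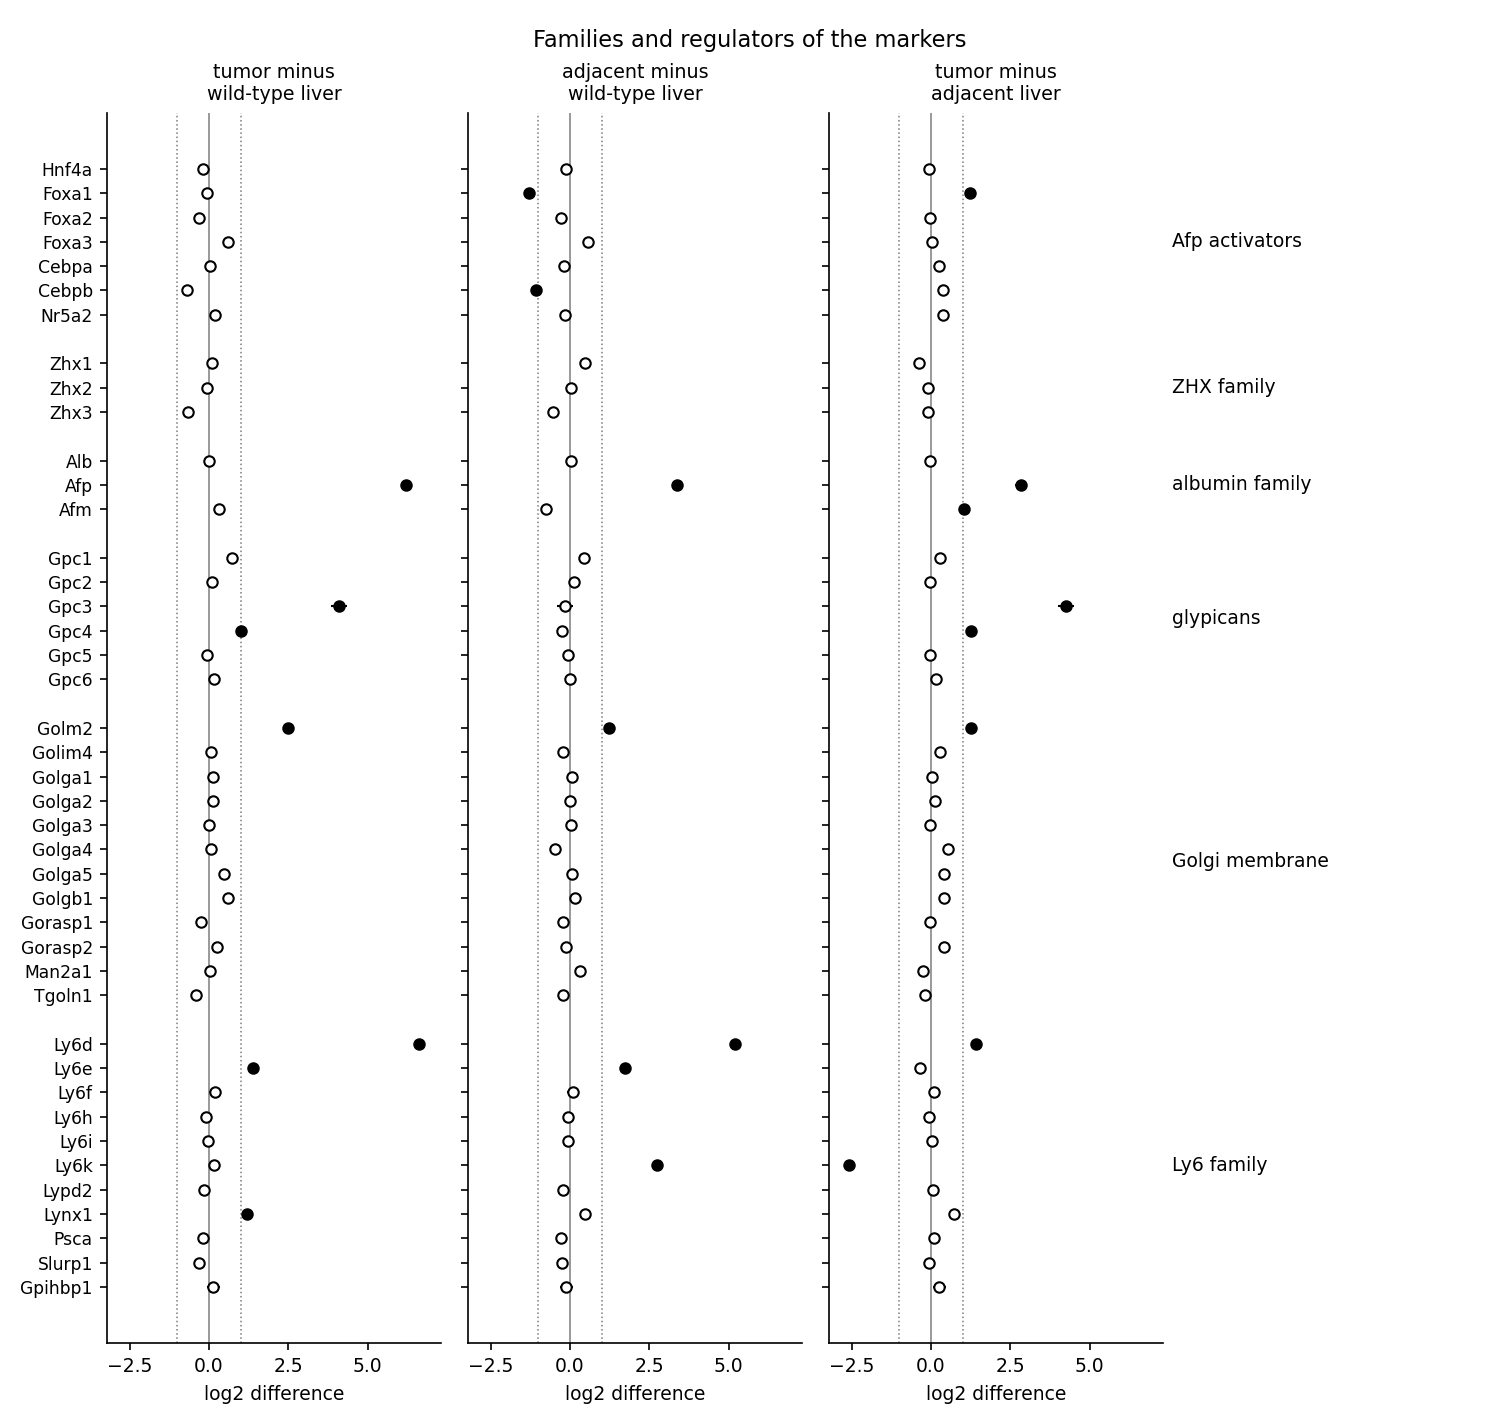
Log2 differences (x axis) of the measured genes of 6 lists, by brightest probe set, for tumor minus wild-type liver, adjacent minus wild-type liver and tumor minus adjacent liver; bars are the SE, mostly smaller than the points, filled points are called and open points are not, and dotted lines mark -1 and 1. Afp, Gpc3 and Ly6d lie far to the right of their relatives in the tumor minus wild-type panel, whereas Zhx2 lies at -0.06 and Alb at 0.002.

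By the brightest probe set of each gene, the 4 markers thus fell into 3 patterns over the same 9 arrays. Gpc3 separated tumor from everything else. Afp was highest in tumor, intermediate in adjacent liver and lowest in wild-type liver. Its adjacent minus wild-type and tumor minus adjacent steps were 3.38 and 2.83. On Afp probe set 1416645_a_at they were 6.32 and 2.47, so how far Afp differs from Ly6d depends on the probe set. Golm1 and Ly6d had the same order of groups as Afp. For Golm1 and Ly6d the tumor stood above adjacent liver by 0.69 and 1.42, small beside their distance of 3.84 and 5.19 between adjacent and wild-type liver. For each of the 4, likeness to 18194 genes was measured as the root mean square difference over the 9 arrays between log2 values centred on each gene's mean. This is a description with no test.

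Closest to Afp were Akr1c18, a steroid dehydrogenase, at a root mean square difference of 0.252, Tekt5, a tektin of sperm flagella, at 0.304, and Spink1, a secreted trypsin inhibitor, at 0.351. Akr1c18 averaged 12.67 in tumor, 10.06 in adjacent liver and 6.88 in wild-type liver, and Spink1 11.49, 8.41 and 5.66 in the same order. Both therefore step down over the 3 tissues as Afp does. The cystine transporter Slc7a11 at 0.526 and Elapor1 at 0.577 followed.

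The genes nearest to Gpc3 were less close to it than the first neighbours of the other markers. Fst, which encodes the activin antagonist follistatin, came first at 0.523, with means of 10.56 in tumor, 5.86 in adjacent liver and 5.54 in wild-type liver. It was followed by Il1f9 (interleukin 36 gamma) at 0.578, the mucin-type glycosyltransferase Galnt6 at 0.62, the xenobiotic-inducible Cyp1a1 at 0.671 and the chemokine Cxcl3 at 0.697. All 5 were high in tumor and near their wild-type level, within 0.73, in adjacent liver.

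Golm1 had the closest neighbours of all. They were Mtmr11, of the myotubularin family, at 0.17, the lipopolysaccharide co-receptor Cd14 at 0.184, Serpinb6b at 0.22, and the caspases Casp4 at 0.322 and Casp12 at 0.331. Cd14 averaged 11.96 in tumor, 11.18 in adjacent liver and 7.37 in wild-type liver. Nearest to Ly6d were the recombination gene Rad51b at 0.371, the trefoil peptide Tff3 at 0.397, the serine synthesis enzyme Psat1 at 0.439, the carbonyl reductase Cbr3 at 0.441 and the siderophore binding protein Lcn2 at 0.504. Tff3 was thus both a listed oncofetal gene and a neighbour of Ly6d, with means of 12.36 in tumor, 11.36 in adjacent liver and 6.48 in wild-type liver.

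**Figure D5:**
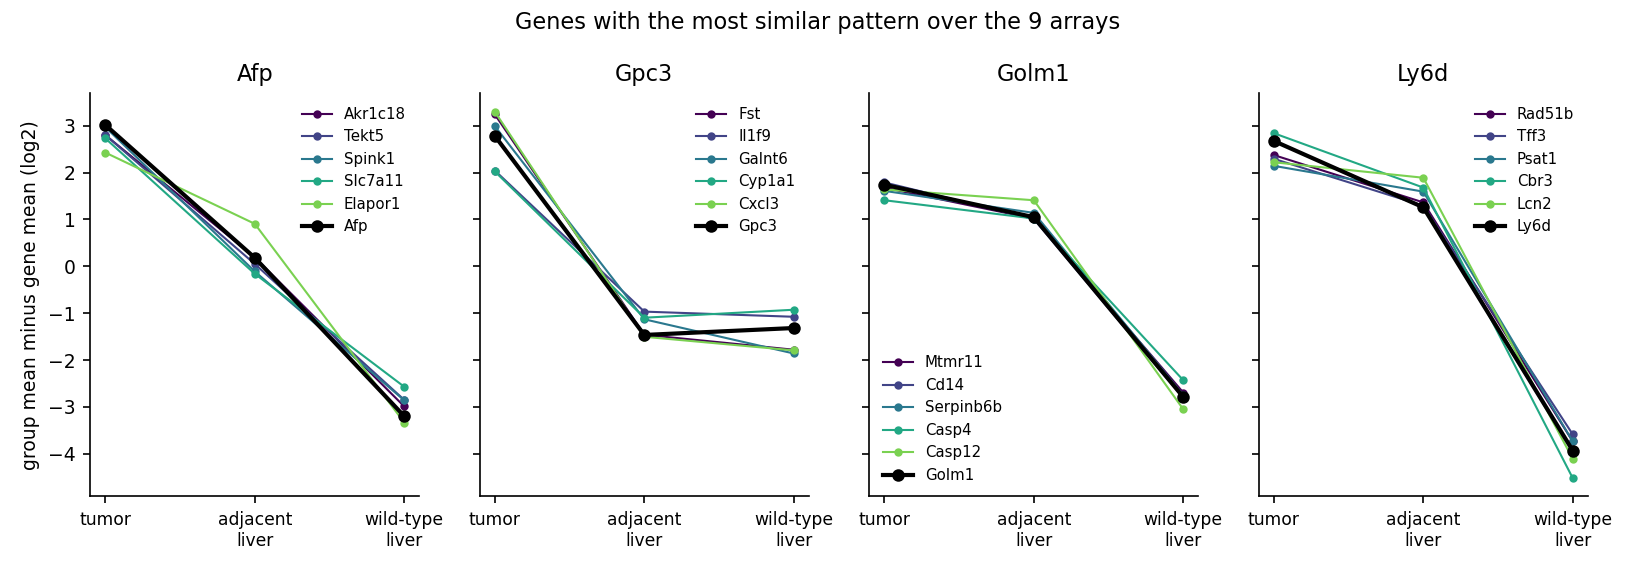
Group means (y axis, log2, minus the mean of the 3 groups) of Afp, Gpc3, Golm1 and Ly6d in black and of the 5 genes most similar to each in colour, in tumor, adjacent liver and wild-type liver (x axis). Afp and 4 of its 5 neighbours step down from tumor over adjacent to wild-type liver, while Elapor1 drops mainly between adjacent and wild-type liver; the lines of Gpc3 drop between tumor and adjacent liver, and those of Golm1 and Ly6d drop between adjacent and wild-type liver.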

How the data were processed

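The authors deposited 1 table of log2 expression for 45101 probe sets on 9 arrays. Per the submitters' processing notes, it came from RMA run in version 1.3.1.187 of Expression Console, the Affymetrix software. RMA corrects the background, equalises the array distributions and summarises probes, so a shift of most genes one way would be hidden. No detection calls were used, so dim values cannot be told from background. Probe sets were named through the platform annotation: 34958 had 1 symbol and were used, 932 had several and 9211 had none. All 18 probe sets described passed a filter at the 40th percentile on at least 3 arrays.

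The test was 1 limma 3.58.1 model (R 4.3.3; 1 mean per group, all 9 arrays) over the 34958 probe sets without a filter, with Benjamini-Hochberg adjustment, and it was tested on simulated data. Genes with several probe sets were counted by the one with the highest mean. The members and gene lists were chosen with earlier results of these data known, and some lists share genes. Named are all members, genes of lists of up to 9 genes, and up to 4 called genes of longer lists with the largest differences; others are marked, and Ihh was added after its values were seen. Cell type lists are named by their called or dim genes. Alternatives changed the filter, the probe set rule, the scaling, the variance model, the arrays used, the threshold and the replicate block. With 3 arrays per group, their number limits the precision. Arrays of a group came from 1 animal and may differ only technically; no 2 arrays were identical. Sequences were matched for 4 of 6 members.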

Additional observations from a re-analysis of the deposited data

Results flagged for a closer look

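Gpc3 on probe set 1450990_at was flagged because the tumor and adjacent pieces lay on opposite sides of the wild-type mean. Every tumor piece lay above the wild-type mean, by 4.10 on average, and every adjacent piece lay below it, by -0.15 on average, so the tumor was 4.25 above adjacent liver on the log2 scale. This difference between the tissues was called, but no p-value is given for it, because Gpc3 was chosen with its values known. The adjacent difference is within the spread of the pieces, with a 95% interval from -0.70 to 0.40.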

How the results depend on the processing

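Over 15 alternatives, no probe set of the 6 genes gained or lost a call. These left out the settings with no minimum difference and with 1 probe set per gene, where calls of the 6 genes were not compared. Under other settings, 214 member differences moved by less than the spread between pieces, as did all 486 with 1 array left out. The remaining 2 were those of the Afp probe set 1436880_at after cyclic loess, at -0.014 for tumor and 0.112 for adjacent liver against wild-type liver. Over all probe sets, calls numbered 2949 in tumor and 2629 in adjacent liver, both against wild type, and 1176 between tumor and adjacent liver. With 1 probe set per gene the counts were 1821, 1620 and 715, since fewer probe sets were tested, and with no minimum difference 16842, 16634 and 10733. Leaving out 1 array gave 2918 to 3007, 2606 to 2694 and 1154 to 1214. With the replicate number as a block the counts were 2950, 2629 and 1176. The numbers did not pair the pieces, since deviations of same-numbered pieces correlated at only -0.087 to 0.13, and the block changed no call of the 6 genes. Of the listed genes, some calls close to 2-fold were lost (39 cases) or gained (19 cases), and none reversed. Signal near the 40th percentile limits the Afp differences from wild-type liver, whose size varies with the probe set.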

Other observations

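Single pieces departed from their group for few genes. Among 18194 genes by brightest probe set, 7 were at least 1 above both other tumor pieces in tumor piece 3, and these included Gpc3 and Gpnmb. In tumor piece 1 the same held for 13 genes, among them Dlk1, the glutamine synthetase Glul, the cytochrome Cyp2e1, the glutamate transporter Slc1a2 and Oat. In tumor piece 2 it held for 1 gene, Cyp2c50. Adjacent piece 2, the lowest adjacent piece for Golm1, Ly6d and 3 Afp probe sets, had 18 genes above and 21 below both other adjacent pieces by at least 1. The higher ones included Cd34, Cav1, Esm1, Emp1, Sparcl1 and Fabp4. Clec4f, a Kupffer cell marker, read 9.29 in that piece, against 10.57 and 10.61 in the other adjacent pieces. The sinusoidal markers Clec4g and Lyve1 read 9.03 and 8.12 there, against at least 10.13 and 9.24 in the others. The rest of the endothelial list was divided. Stab2 and Stab1 were also lowest in that piece, at 8.91 and 8.66. Pecam1, Cdh5 and Kdr were instead highest in it, at 8.56, 8.06 and 9.74. The part of these cells in the lower Afp, Golm1 and Ly6d values of that piece was not tested. Genes named here were picked after their values were seen.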
